A study of Mus musculus with 23 samples.

Results

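H3K27ac gain in the earliest cortical neurons was examined at E11.5 by setting the peak list of Ebf2-EGFP+ cells against that of Ebf2-EGFP- cells. The members were all 37055 peaks of the first list and all 1386 peaks of the second, 38441 of the 230624 peaks in the 8 lists of the series. They came from 3 of 23 samples, of which 2 were libraries of Ebf2-EGFP+ cells and 1 was a library of Ebf2-EGFP- cells. A peak was called shared when it overlapped a peak of the other list by at least 1 bp, and otherwise it was called Ebf2-EGFP+ only or Ebf2-EGFP- only.

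Both cell groups were sorted by fluorescence from the cortex of mouse embryos that carry the transgene Tg(Ebf2-EGFP)FB58Gsat, in which regulatory sequence of Ebf2 drives EGFP, so the control cells carried the same transgene. Neither group was treated. According to the study, the Ebf2-EGFP+ cells of this age are mostly preplate neurons, that is subplate and Cajal-Retzius (CR) neurons, and the Ebf2-EGFP- cells are mostly progenitors. EGFP reports the activity of the transgene, and each sorted group is a mixture. Each group had a single list, so its error between replicates is unknown and the groups were compared without a test. The depth of the libraries is unknown, so a shorter list and fewer acetylated sites cannot be told apart. Intervals below are Wilson 95% confidence intervals, and they cover counting over peaks or genes only.

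Acetylation of lysine 27 on histone H3 is placed by the acetyltransferases p300 and CBP at active promoters and enhancers. A lysine that carries it cannot carry methylation, which Polycomb repressive complex 2 writes at silent developmental genes. As a cortical progenitor becomes a neuron, proneural factors of the Neurog and Neurod families switch on neuronal genes, often through enhancers far from the promoter, while progenitor genes of the Sox and Hes families are shut down.

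A few sequences show what kind of DNA the classes held, and all are read from GRCm38 (mm10) on the plus strand. The first is the middle 300 bases of the widest shared peak near the transcription start site (TSS) of a listed neuronal transcription factor, Cajal-Retzius or progenitor gene, a peak of 1816 bp at Msi1, which encodes an RNA-binding protein of neural progenitors (chr5:115429970-115430269, with 41 coding bases). Another comes from the largest cluster of Ebf2-EGFP+ peaks (chr8:123547461-123547760), and the last from the densest block of Ebf2-EGFP- only peaks (chr9:3001045-3001344). Both of these were chosen after their values were seen. CpG dinucleotides are in capitals, and there were 36, 26 and 6 of them, respectively.
Msi1, widest shared peak: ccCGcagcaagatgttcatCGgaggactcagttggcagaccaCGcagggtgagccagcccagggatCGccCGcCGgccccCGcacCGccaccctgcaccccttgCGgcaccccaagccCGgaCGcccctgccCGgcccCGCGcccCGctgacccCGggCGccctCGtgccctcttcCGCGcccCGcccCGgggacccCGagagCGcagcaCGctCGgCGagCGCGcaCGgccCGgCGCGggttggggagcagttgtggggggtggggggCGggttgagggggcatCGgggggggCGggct
rRNA gene array near Gas8, Ebf2-EGFP+ only: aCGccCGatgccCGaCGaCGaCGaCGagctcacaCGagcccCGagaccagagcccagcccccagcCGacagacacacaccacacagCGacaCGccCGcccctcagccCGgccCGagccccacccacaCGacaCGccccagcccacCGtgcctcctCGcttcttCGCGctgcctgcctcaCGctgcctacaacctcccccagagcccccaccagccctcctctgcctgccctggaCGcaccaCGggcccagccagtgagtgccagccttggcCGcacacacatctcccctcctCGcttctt
Gm10722 region, Ebf2-EGFP- only: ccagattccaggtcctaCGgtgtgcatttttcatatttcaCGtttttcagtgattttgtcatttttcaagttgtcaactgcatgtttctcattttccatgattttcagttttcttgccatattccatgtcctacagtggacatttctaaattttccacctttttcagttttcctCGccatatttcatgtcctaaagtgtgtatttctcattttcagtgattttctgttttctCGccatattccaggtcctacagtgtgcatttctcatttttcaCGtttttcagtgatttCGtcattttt
The other sequences are whole peaks, the 3 distal Ebf2-EGFP+ only peaks assigned to listed genes whose 300 bp windows held the most matches to CAGATG, the E-box bound by Neurog and Neurod factors. They lay nearest to Zfp326 (chr5:105851751-105852013), Rbfox2 (chr15:77279207-77279362) and Kcnc4 (chr3:107479873-107480140). CAGATG, on either strand, is in capitals.
Zfp326: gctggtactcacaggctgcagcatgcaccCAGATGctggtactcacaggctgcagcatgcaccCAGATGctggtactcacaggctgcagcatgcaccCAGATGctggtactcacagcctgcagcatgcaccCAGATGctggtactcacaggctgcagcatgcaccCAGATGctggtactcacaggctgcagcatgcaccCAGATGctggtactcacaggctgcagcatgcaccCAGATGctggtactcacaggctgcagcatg
Rbfox2: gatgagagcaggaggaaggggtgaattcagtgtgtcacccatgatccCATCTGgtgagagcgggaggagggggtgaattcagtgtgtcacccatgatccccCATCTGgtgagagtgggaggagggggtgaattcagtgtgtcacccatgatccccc
Kcnc4: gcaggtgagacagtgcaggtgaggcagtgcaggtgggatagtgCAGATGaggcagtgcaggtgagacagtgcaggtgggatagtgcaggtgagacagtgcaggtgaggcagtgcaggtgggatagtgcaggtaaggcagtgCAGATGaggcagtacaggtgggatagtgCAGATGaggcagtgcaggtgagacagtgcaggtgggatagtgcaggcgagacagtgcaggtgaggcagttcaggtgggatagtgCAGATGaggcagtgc
Each of these 3 peaks is a short unit repeated in tandem, so its matches are copies of the same unit. The windows of 300 bp on the peak centres held 9, 6 and 4 matches.

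Nearly all of the H3K27ac peaks of Ebf2-EGFP+ cells had no overlapping peak in the Ebf2-EGFP- list. Of the Ebf2-EGFP+ peaks, 851 were shared (2.30%, CI 2.15 to 2.45) and 36204 were Ebf2-EGFP+ only. In the other direction, 873 Ebf2-EGFP- peaks were shared (63.0%, CI 60.4 to 65.5) and 513 were not. The shared sites were mainly promoters and the others mainly distal. Peak centres lay within 1 kb of a protein-coding TSS for 78.1% of the shared Ebf2-EGFP+ peaks (CI 75.2 to 80.8), 23.2% of the Ebf2-EGFP+ only peaks (CI 22.7 to 23.6) and 14.8% of the Ebf2-EGFP- only peaks (CI 12 to 18.2). The centre was over 5 kb from any TSS, here called distal, for 13.6%, 66.6% and 73.3% of the same classes. Median distances to the nearest TSS were 362 bp, 15407 bp and 21970 bp.

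**Figure D1:**
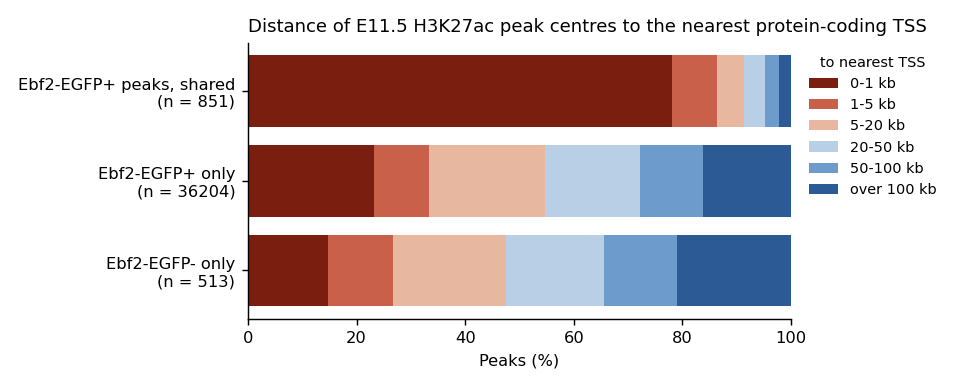
Horizontal bars give, for each class of E11.5 H3K27ac peaks, the percentage of peak centres in each range of distance to the nearest protein-coding TSS. The shared class is mostly within 1 kb (78.1%), whereas 23.2% of Ebf2-EGFP+ only and 14.8% of Ebf2-EGFP- only peaks are.

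Away from promoters, the Ebf2-EGFP+ only class was spread over introns (34.2%), intergenic DNA (24.8%) and exons (17.8%). The Ebf2-EGFP- only class had 36.8% in introns and 32.9% in intergenic DNA. Counted over distal peaks, 39.7% of the shared (CI 31.2 to 48.8) and 19.9% of the Ebf2-EGFP+ only peaks (CI 19.4 to 20.4) were centred in an annotated exon.

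The classes differed in width. The files hold no peak height, so width is the only measure of a peak's size. The median width was 633 bp for shared Ebf2-EGFP+ peaks (quartiles 428.5 and 876) and 210 bp for Ebf2-EGFP+ only peaks (quartiles 164 and 296). Among Ebf2-EGFP+ peaks of at least 1000 bp, 38.5% (CI 33.8 to 43.3, n = 403) were shared. Of those under 150 bp, 0.0578% were shared (CI 0.0196 to 0.170, n = 5194). The rise held at promoters and at distal sites taken separately. With overlap called at 1 bp, a wider peak has more bases that can overlap, and the part of this in the rise was not tested. At 1000 bp or more, 38.6% of promoter peaks (CI 33.3 to 44.1) and 31.3% of distal peaks (CI 19.9 to 45.3) were shared, and these intervals overlap. From 400 to under 600 bp they were 9.54% (CI 8.29 to 11) and 2.09% (CI 1.40 to 3.12), and these do not.

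**Figure D2:**
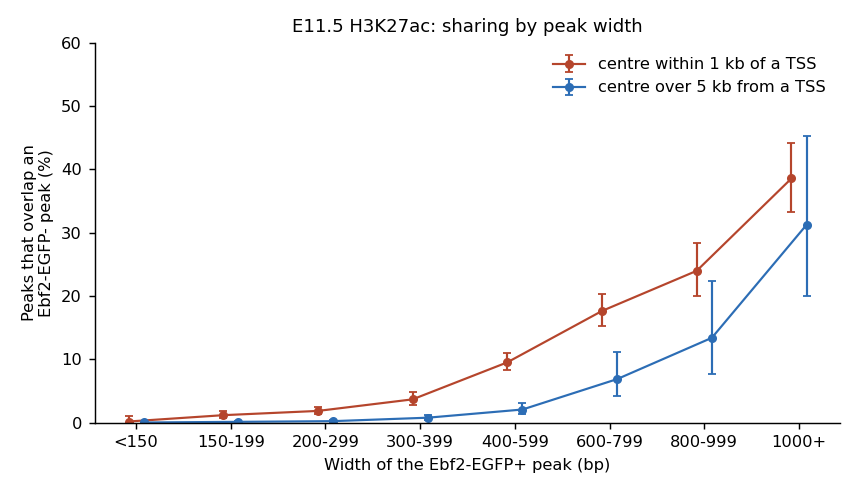
Points give the percentage of E11.5 Ebf2-EGFP+ H3K27ac peaks that overlap an Ebf2-EGFP- peak, by peak width in bp, with Wilson 95% intervals as bars, separately for peaks within 1 kb of a TSS and over 5 kb from one. Both curves rise with width, to 38.6% and 31.3% at 1000 bp or more.

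The Ebf2-EGFP- peaks were narrow even where they were shared. Their median width was 236 bp for the shared and 177 bp for the Ebf2-EGFP- only peaks, and 143 of the 513 Ebf2-EGFP- only peaks (27.9%) had the smallest width in that list, 157 bp. The smallest width in the Ebf2-EGFP+ list was 142 bp, held by 8.53% of its peaks. Sharing was also counted with lists of equal length, which changes the widths as well. When only the 1386 widest Ebf2-EGFP+ peaks were used, as many as in the Ebf2-EGFP- list, 26.0% of them were shared in place of 2.30%, and 27.9% of Ebf2-EGFP- peaks were shared in place of 63.0%. Most of those 1386 wide peaks, 1025 in all, still had no Ebf2-EGFP- counterpart, and 75.8% of the 1025 were promoter peaks.

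At the level of genes, a TSS was taken as marked where any base of a peak fell no farther than 5 kb from it. Each gene had a single TSS, the outermost start of its annotation, and other transcript starts were not used here. Of 21938 protein-coding TSS, 49.9% were marked in Ebf2-EGFP+ cells and 4.17% in Ebf2-EGFP- cells. With a window of the same size, the study reports H3K27ac, mostly together with H3K27me3, at most TSS of its detected genes in Ebf2-EGFP- cells. That is far above the 4.17% counted from the deposited list, and the reason for the difference was not tested. The mark was gained, that is listed in Ebf2-EGFP+ and not in Ebf2-EGFP- cells, at 10099 TSS (46.0%). It was listed in both at 858 TSS (3.91%) and in Ebf2-EGFP- cells alone at 57 (0.260%). These shares over all genes are the background for every list below. A TSS with a wide Ebf2-EGFP+ peak was more often marked in both. Where the widest Ebf2-EGFP+ peak was under 300 bp, 1.82% of TSS (CI 1.47 to 2.24) also had an Ebf2-EGFP- peak, and where it was at least 1000 bp, 37.4% did (CI 32.9 to 42.2). The median of the widest peak was 638 bp at TSS marked in both and 325 bp at gained TSS. With the 1386 widest Ebf2-EGFP+ peaks alone, 1006 TSS were gained, 364 were in both and 551 were in Ebf2-EGFP- cells alone.

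Markers of the sorted cells were checked first, by peaks within 5 kb of the TSS. Of 10 preplate and CR markers, 8 had an Ebf2-EGFP+ peak, and the 2 without were Calb2, the calcium-binding protein calretinin, and Dcx, a microtubule protein of migrating neurons. The study names Calb2 among genes with H3K27ac in Ebf2-EGFP+ cells, without giving a stage. Reln and Tbr1 also had an Ebf2-EGFP- peak. Of 7 progenitor markers, 5 had an Ebf2-EGFP+ peak, with Sox2, Hes1, Hes5, Nes and Vim among them and Pax6 and Fabp7 without, while 0 of 7 had an Ebf2-EGFP- peak. At the background share of 4.17%, so few markers say little about the label of the Ebf2-EGFP- list. In the longer list of 30 radial glia and progenitor genes, 4 had an Ebf2-EGFP- peak (13.3%). This share was not particular to progenitor genes. It was higher for CR genes (2 of 9, 22.2%), neuronal transcription factors (7 of 32, 21.9%) and splicing factors (9 of 42, 21.4%). It was lower for neuronal cytoskeleton and RNA-binding genes (3 of 33, 9.09%) and axon guidance genes (4 of 79, 5.06%). These counts are small, no intervals were computed for them, and Tbr1 counts in both the CR and the neuronal factor list. Markers of other cell types were marked in Ebf2-EGFP+ cells at 4 of 12 endothelial, 2 of 10 blood, 1 of 11 microglia and 4 of 12 mesenchyme genes. The intervals of the endothelial, blood and mesenchyme shares (13.8 to 60.9, 5.67 to 51, and 13.8 to 60.9) hold the 49.9% of all genes, and that of microglia (1.62 to 37.7) lies below it. In Ebf2-EGFP- cells the counts were 0, 0, 0 and 1. Factors of non-neural lineages were marked in Ebf2-EGFP+ cells at 16 of 30 TSS and genes of GABAergic neurons at 8 of 15, both 53.3%.

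Neuronal transcription factors were marked at 24 of 32 TSS in Ebf2-EGFP+ cells (75%, CI 57.9 to 86.7). Of these, 17 were gained and 7 were listed in both. The gained share of the list was 53.1% (CI 36.4 to 69.1), an interval that holds the 46.0% of all TSS. The share in both was 21.9%, against 3.91% of all TSS. The gained TSS included proneural genes, which commit progenitors to the neuronal fate. Neurog2 had 2 peaks, the wider of 710 bp, and Neurog1 had a peak of 430 bp. Neurod1 and Neurod2, differentiation factors, were gained too. Neurod1 had 2 peaks, the wider of 426 bp, and Neurod2 had 3 peaks, the widest of 296 bp. Sox4, a factor of newborn neurons, carried a peak of 1727 bp, among the 10 widest Ebf2-EGFP+ only peaks at any TSS. Scrt1, a repressor of the Snail family, had 4 peaks up to 713 bp wide, and Eomes, a T-box factor of intermediate progenitors, had 2 up to 552 bp. The 8 TSS with no peak of either cell group were those of St18, Zeb2, Myt1, Prdm8, Neurod6, Neurod4, Ebf1 and Myt1l.

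The 7 neuronal factors marked in both were Tbr1, Nhlh2, Insm1, Scrt2, Sox11, Bcl11a and Bcl11b. Tbr1, the T-box factor of preplate and layer 6 neurons (chr2:61802930-61814114), had 3 Ebf2-EGFP+ peaks, the widest of 907 bp, and a single Ebf2-EGFP- peak of 197 bp centred 2316 bp downstream of the TSS. Insm1, a zinc finger factor of delaminating progenitors, had Ebf2-EGFP+ peaks up to 1442 bp wide against an Ebf2-EGFP- peak of 190 bp. At Sox11 the widest peaks were 1366 bp and 262 bp, and at Nhlh2 676 bp and 351 bp. In each of the 7 the widest Ebf2-EGFP+ peak was wider than the widest Ebf2-EGFP- peak. That direction was not particular to these genes, as shared peaks as a whole had median widths of 633 bp in the Ebf2-EGFP+ and 236 bp in the Ebf2-EGFP- list. At Bcl11a and Bcl11b, zinc finger factors of projection neurons, the Ebf2-EGFP- peaks of 194 bp and 172 bp did not overlap the Ebf2-EGFP+ peaks and belonged to the Ebf2-EGFP- only class.

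**Figure D3:**
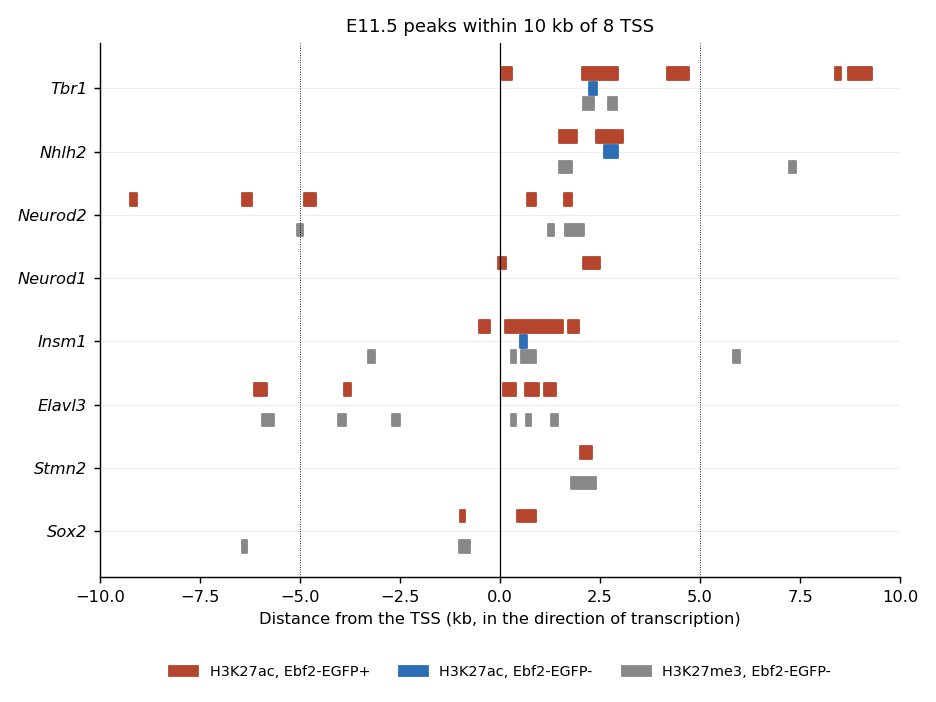
Peaks of 3 E11.5 lists within 10 kb of the TSS of 8 listed genes picked for illustration, drawn to scale by distance from the TSS in kb in the direction of transcription, with dotted lines at 5 kb. Ebf2-EGFP- H3K27ac peaks appear at Tbr1, Nhlh2 and Insm1, and at 0 of the other 5 genes.

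Among 9 CR genes, 8 were marked in Ebf2-EGFP+ cells and 2 in both. Reln encodes the secreted protein Reelin that guides radial migration, and its TSS (chr5:21884454-22344702, minus strand) had 2 Ebf2-EGFP+ peaks up to 326 bp and an Ebf2-EGFP- peak of 267 bp. Trp73, a p53 relative expressed in CR neurons, had a gained peak of 286 bp. The LIM factors Lhx1 and Lhx5 had 3 and 4 gained peaks, the widest of 167 bp and 292 bp. Ebf3 had 4, up to 481 bp. Ebf2, the gene whose regulatory sequence drives EGFP, had a single narrow peak of 151 bp, centred 2539 bp into the gene, and 9 distal Ebf2-EGFP+ only peaks nearest to it. The peaks of CR genes were not wide, with a median of the widest at 289 bp against 342 bp over all marked TSS, and 0 of them reached 1000 bp. Subplate and early neuronal genes were marked at 7 of 11 TSS (63.6%, CI 35.4 to 84.8), an interval that holds the 49.9% of all genes. All 7 were gained, as were 10099 of the 10957 marked TSS of all genes. Among the 7 were Nr4a2, a nuclear receptor of subplate neurons (846 bp), Nxph4, a secreted neurexophilin (727 bp), Igfbpl1 (632 bp) and Tle4, a corepressor (542 bp). The 4 with no peak of either cell group included St18 and Myt1.

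Genes of the neuronal cytoskeleton and neuronal RNA-binding proteins were marked at 26 of 33 TSS (78.8%, CI 62.2 to 89.3), 23 of them gained. Rbfox3, the splicing regulator known as NeuN, had a peak of 1166 bp, Nsg1, an endosomal protein of neurons, 1024 bp, and Nefm, a neurofilament subunit, 938 bp. Tubb3, the tubulin by which young neurons are stained, had 3 gained peaks up to 598 bp. Map1b, Ina and Crmp1 were marked in both, with Ebf2-EGFP+ peaks of 621 bp, 769 bp and 1036 bp against Ebf2-EGFP- peaks of 174 bp, 336 bp and 314 bp. Elavl2, Nsg2, Stmn4, Nefl, Gap43, L1cam and Dcx had no peak of either cell group within 5 kb of the TSS, though distal Ebf2-EGFP+ only peaks lay nearest to Elavl2. Genes of synaptic vesicle release, which act later in a neuron's life, were marked at 17 of 32 TSS (53.1%, CI 36.4 to 69.1), an interval that holds the 49.9% of all genes. Rims2, a scaffold of the active zone, stood apart there with a shared peak of 1998 bp, and Vamp2, a vesicle SNARE, was also in both.

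Axon guidance genes were marked at 60 of 79 TSS (75.9%, CI 65.5 to 84.0), with 56 gained. Sema4c, a transmembrane semaphorin, had the widest gained peak (1838 bp). Plxna1 and Plxnc1, semaphorin receptors, had peaks of 1053 bp and 1001 bp, and Dcc and Robo2, receptors for netrin and Slit proteins, 445 bp and 492 bp. Efnb2, an ephrin ligand, and Ephb2, an ephrin receptor, were in both, with 1344 bp and 1665 bp in Ebf2-EGFP+ against 204 bp and 157 bp in Ebf2-EGFP- cells. Of the later signalling machinery, potassium channels (47 of 93), sodium and calcium channels (20 of 40) and glutamate receptors (13 of 26) lay near the background share, and GABA receptors (5 of 21) below it.

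Progenitor genes were marked in Ebf2-EGFP+ cells in a share that overlapped that of the neuronal lists in its interval. Of 30 radial glia and progenitor genes, 25 were marked (83.3%, CI 66.4 to 92.7), 21 of them gained. Sox1, a factor of neural progenitors, had a gained peak of 1079 bp, Dmrta2 1063 bp, Emx2 988 bp and Prom1, the surface protein CD133, 980 bp. Sox2, which keeps progenitors undifferentiated, had 2 gained peaks, the wider of 480 bp. The 4 marked in both were Lhx2, Msi1, Fgfr2 and Fgfr3. At Msi1 the widths were 1816 bp and 291 bp, and at Fgfr2 831 bp and 158 bp. Pax6, Nr2e1, Fabp7, Rfx4 and Slc1a3 had no peak of either cell group within 5 kb of the TSS, though distal Ebf2-EGFP+ only peaks lay nearest to Pax6. Notch pathway genes were marked at 20 of 24 TSS, with Hes6, an inhibitor of Hes1, at 1470 bp, the ligand gene Dll1 at 606 bp and Maml1, a coactivator of Notch, in both. Cell cycle genes were marked at 18 of 36 (CI 34.5 to 65.5) and patterning signals at 20 of 33 (CI 43.7 to 75.3), and both intervals hold the background of 49.9%.

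Of the housekeeping groups, oxidative phosphorylation genes were marked at 62 of 93 TSS (66.7%), and others more often. Replication-dependent histone genes were marked at 61 of 67 TSS (91.0%, CI 81.8 to 95.8), splicing factors at 37 of 42 (88.1%, CI 75 to 94.8) and cytosolic ribosomal proteins at 67 of 83 (80.7%, CI 71 to 87.8). Histone genes lie in arrays in which a peak can count for several TSS. Splicing factors also had 9 TSS in both, all of them hnRNP or SR genes such as Hnrnpk, Hnrnpu and Srsf6. Regulators of H3K27 itself were marked at 22 of 26. Ep300 and Crebbp, which encode p300 and CBP, were in both, with 987 bp and 1028 bp in Ebf2-EGFP+ against 479 bp and 390 bp in Ebf2-EGFP- cells. Ezh2, the methyltransferase of Polycomb repressive complex 2, had 1187 bp against 191 bp, while Eed and Suz12 of the same complex were gained, at 612 bp and 216 bp. Of 39 Hox genes, which pattern the trunk, 15 were marked (38.5%, CI 24.9 to 54.1, an interval that holds the background), with a median widest peak of 217 bp. Olfactory receptors were marked at 41 of 1134 TSS (3.62%) and vomeronasal receptors at 11 of 326 (3.37%).

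**Figure D4:**
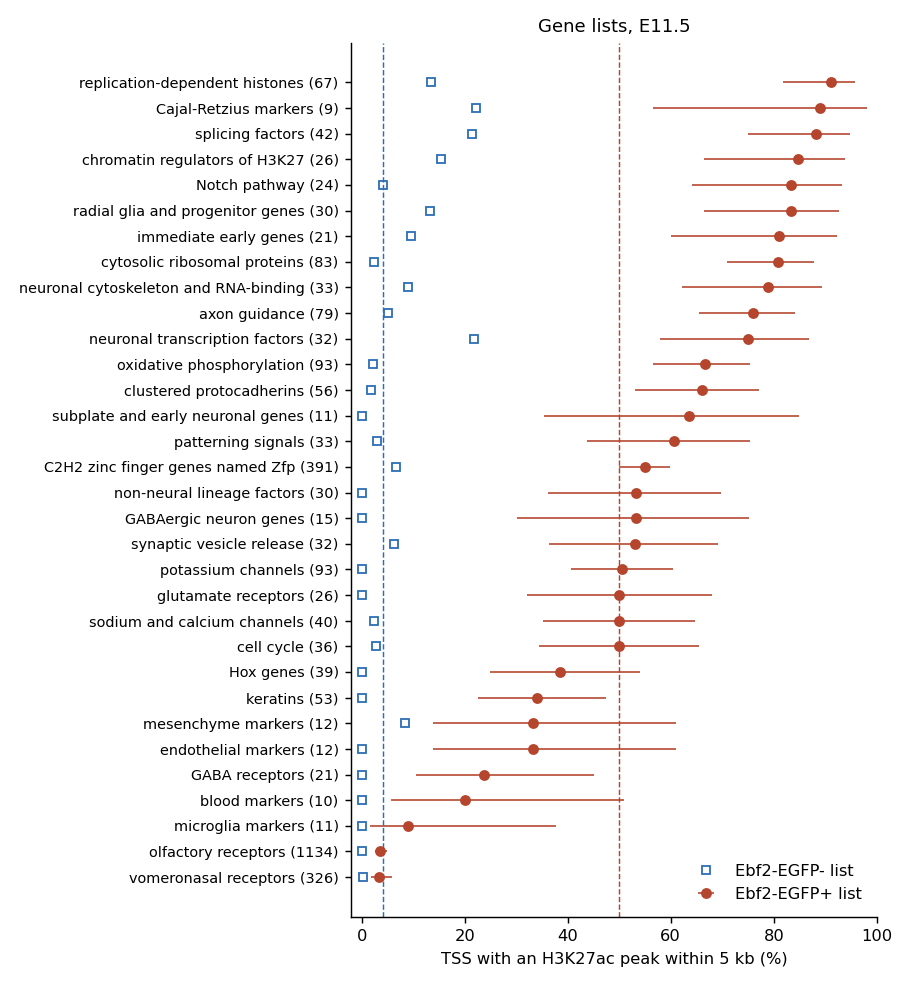
Percentage of TSS with an H3K27ac peak within 5 kb for 32 gene lists (number of genes in brackets), as filled circles with Wilson 95% intervals for Ebf2-EGFP+ and open squares for Ebf2-EGFP- cells. Dashed lines mark all protein-coding genes, at 49.9% and 4.17%, and shares run from 3.37% for vomeronasal receptors to 91.0% for histones.

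With the 1386 widest Ebf2-EGFP+ peaks alone, 6.24% of all TSS were marked, and the lists that kept the highest shares were splicing factors (31.0%), neuronal cytoskeleton and RNA-binding genes (27.3%), regulators of H3K27 (26.9%), progenitor genes (26.7%) and neuronal transcription factors (25%). Histones fell to 4.48% and ribosomal proteins to 3.61%. Restricting the window to 1 kb left protocadherins at 12.5%, from 66.1%.

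The widest single peaks at TSS lay at genes of varied roles. In the Ebf2-EGFP+ only class these lay at Sp3, a GC-box binding factor (chr2:72978760-72981054, 2295 bp), Ubtf, a factor of ribosomal RNA transcription (chr11:102316930-102319037, 2108 bp), and Cdk13, a kinase of RNA polymerase II (chr13:17803287-17805363, 2077 bp). Irs2, Hnrnpa0, Sema4c, Ing1, Kalrn, Sox4 and N4bp2 completed the 10, down to 1707 bp. In the shared class they lay at Arid1b, a subunit of the BAF remodelling complex (chr17:4994528-4996815, 2288 bp), Elf2, an ETS factor (chr3:51339958-51342045, 2088 bp), and Rims2 (chr15:39197264-39199261, 1998 bp), followed by Cpeb2, Ywhaz, Msi1, Zmynd11, Kcmf1, Vapa and Chd7. All 20 of these TSS were also listed at E15.5, with widest peaks between 1325 bp at Msi1 and 2709 bp at Ubtf.

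Shared and gained sites differed in how often they were listed at later stages in Ebf2-EGFP+ cells, lists that the classes did not use. At E15.5, when these cells are mostly CR neurons, 95.9% of the shared peaks (CI 94.3 to 97) and 25.9% of the Ebf2-EGFP+ only peaks (CI 25.4 to 26.3) were listed. At E13.5 the shares were 76.9% and 35.7%. The E13.5 list held 102881 peaks and the E15.5 list 25793, so list length and change between these stages cannot be told apart. Within the gained class promoter and distal peaks differed. Of Ebf2-EGFP+ only promoter peaks, 76.8% were listed at E15.5, and of distal ones 8.66%. Of shared peaks, 99.1% of promoter and 78.4% of distal ones were. The share also rose with width, with the same limit that a wider peak has more bases that can overlap. Distal Ebf2-EGFP+ only peaks under 200 bp were listed at E15.5 in 4.62% of cases (CI 4.27 to 5.0, n = 12810) and those of at least 1000 bp in 81.8% (CI 65.6 to 91.4, n = 33). The corresponding promoter peaks went from 56.8% (CI 54.5 to 59.0) to 98.9% (CI 96.2 to 99.7).

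The same relation with width, under the same limit, appeared in a list of the opposite mark from the other cells. Of Ebf2-EGFP+ only peaks, 26.6% overlapped an H3K27me3 peak of E11.5 Ebf2-EGFP- cells, and of shared peaks 75.4%. For distal Ebf2-EGFP+ only peaks this overlap went from 13.6% under 200 bp to 90.9% (CI 76.4 to 96.9) at 1000 bp or more. By TSS, 68.6% of the gained, 83.7% of those in both and 26.5% of those with neither had an H3K27me3 peak of these cells within 5 kb, against 48.2% of all. The H3K27me3 list of Ebf2-EGFP+ cells overlapped 3.06% of shared and 3.63% of Ebf2-EGFP+ only peaks. That list held 6387 peaks against 48963 in Ebf2-EGFP- cells, so list length and loss of the mark cannot be told apart in these shares. GC content rose with width in the same distal peaks, from 55.2% to 69.8%, while 19.001% of the narrowest and 12.1% of the widest were over 50% repeat-masked, and the part of either in these shares was not tested.

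**Figure D5:**
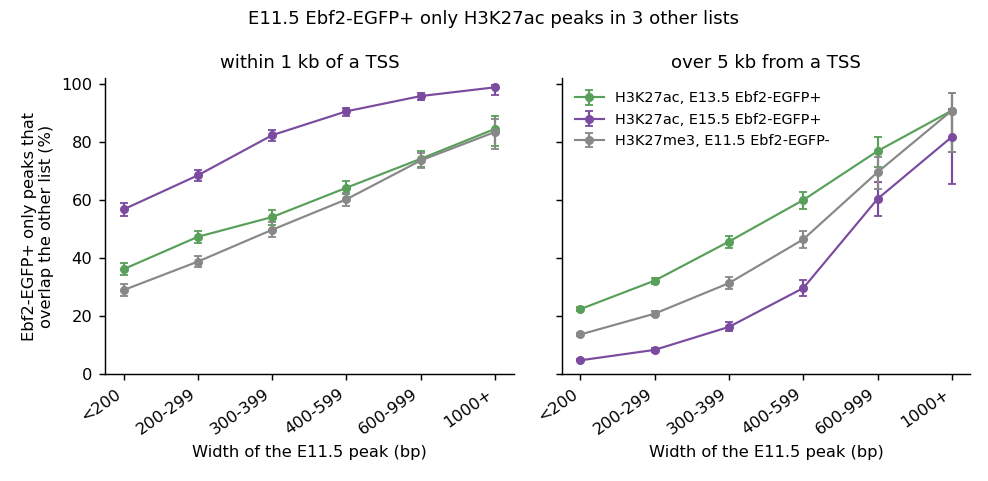
Percentage of E11.5 Ebf2-EGFP+ only H3K27ac peaks that overlap 3 other peak lists, by peak width in bp, with Wilson 95% intervals, for promoter (left) and distal (right) peaks. All 6 curves rise with width, and distal peaks overlap the E15.5 H3K27ac list in 4.62% of cases under 200 bp and 81.8% at 1000 bp or more.

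The DNA of the classes differed. In windows of 300 bp on the peak centres, GC content was 73.6% ± 7.94 (SD over 851 windows) for shared, 59.6% ± 7.94 (36204 windows) for Ebf2-EGFP+ only and 52.4% ± 8.99 (513 windows) for Ebf2-EGFP- only peaks, against 41.7% in the genome. Windows with over 50% GC and an observed to expected CpG ratio over 0.6, the composition of a CpG island, made up 92.2%, 29.6% and 11.3% of the classes. The distal Ebf2-EGFP+ only windows had a GC content of 56.6% and a median CpG ratio of 0.256, so they were rich in GC and poor in CpG. Shared distal windows had a ratio of 0.872. The Msi1 sequence above, from a shared peak, had 78.3% GC and 36 CpG dinucleotides in 300 bases.

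Letters of 14 binding motifs were counted on both strands of the same windows. CAGATG and CAGCTG are both forms of the E-box, CANNTG, and differ in its middle letters. The share of all genome windows of that length with CAGATG was 21.8%, and of the reference table's promoters, which are of the same length, 17.2%. In distal Ebf2-EGFP+ only windows it was 24.9% (CI 24.4 to 25.5), and in distal Ebf2-EGFP- only windows 23.7%, so the proneural E-box was near the genome share in both. In promoter windows it was lower, at 9.99% of Ebf2-EGFP+ only and 5.86% of shared ones. CAGCTG, the other E-box, was in 24.2% of distal Ebf2-EGFP+ only, 18.4% of distal Ebf2-EGFP- only and 10.5% of genome windows. CCCNNGGGA, the letters of EBF factors, was in 10.1%, 6.12% and 2.73% of the same sets, and in 17.2% of shared distal windows. TAATTA, a homeodomain motif, was in 1.19% of distal Ebf2-EGFP+ only against 10.6% of genome windows, and AACAATG, bound by SOX factors, in 2.33% against 5.97%. AAGATGGCG, the letters of YY1, had the highest ratio to the genome of the 14 in distal Ebf2-EGFP+ only windows, at 4.34% against 0.302%, and was in 2.35% of the Ebf2-EGFP+ only promoter windows. The GC content of these windows, given above, differs from that of the genome, and its part in the shares was not tested. GGGGCGGGG, bound by SP and KLF factors, was in 17.1% of shared and 12% of Ebf2-EGFP+ only promoter windows, against 11.4% of the promoter table.

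Ebf2-EGFP+ peaks were often isolated. Joining neighbours within 12 kb gave 23365 groups, of which 70.8% held a single peak and 113 held 10 or more. The 2 with the largest covered length held only Ebf2-EGFP+ only peaks and no protein-coding TSS. The first, of 92 peaks (chr8:123527751-123624248, nearest to Gas8), held 48 of the 62 RefSeq rRNA genes on these chromosomes, with a median step of 711 bp between peaks, and 72.4% of the bases in its peaks were repeat-masked. The second, of 106 peaks (chr6:114479736-114637373, nearest to Atg7), was 76.2% repeat-masked, with a median step of 1386 bp. Both were dense in other lists as well, with 65 and 157 H3K27ac peaks at E13.5 and 96 and 153 in the H3K27me3 list of the Ebf2-EGFP- cells. The genes with the most Ebf2-EGFP+ only peaks nearest to their TSS were therefore Atg7 (73) and Gas8 (59), followed by Rhou (33), Gm21119 (31) and Ezh2 (28). A pair of smaller groups lay on chromosome 6 beside Pdia4 and Ezh2, with 24 and 28 peaks and steps of 807 bp and 857 bp. The group with the next largest covered length (chr10:80283070-80410591) was of another kind, with 30 peaks over many promoters, 2 Ebf2-EGFP- peaks and 9.94% of bases repeat-masked. Peaks with over 50% of bases masked made up 13.3% of the Ebf2-EGFP+ only class and 1.53% of the shared class.

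The Ebf2-EGFP- only class, the sites with no overlapping Ebf2-EGFP+ peak at E11.5, was small and mostly narrow. Its 513 peaks lay at a median of 15943 bp from the nearest Ebf2-EGFP+ peak, 45 of them within 500 bp and 122 over 50 kb away. The widest lay at Gm10800 (chr2:98666216-98667341, 1126 bp) and Gm10722 (chr9:3000857-3001532, 676 bp), predicted genes in repeat DNA, and each overlapped 5 of the 6 other lists. In 1 block of 1 Mb at the start of chromosome 9 there were 41 of the 513, on average 95.5% repeat-masked. The AT-rich sequence printed above, with 35.7% GC, is from there. The widest shared Ebf2-EGFP- peaks, of 1422 bp and 1190 bp, overlapped an rRNA gene annotated by GENCODE (chr17:39845068-39846489 and chr17:39847616-39848805). Without peaks that were over 50% masked, 68.4% of Ebf2-EGFP- peaks were shared in place of 63.0%.

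Of the 513 Ebf2-EGFP- only peaks, 26 (5.07%, CI 3.48 to 7.32) were assigned to a listed gene as the nearest TSS within 100 kb, 10 of them within 5 kb. Of the 57 TSS marked in Ebf2-EGFP- cells alone, 4 belonged to a list, those of Olfr342, Cox6b2, Vmn1r70 and Rps27l, with peaks of 157 bp for the first 3 and 182 bp for Rps27l. These were olfactory and vomeronasal receptors, a respiratory chain subunit and a ribosomal protein. Other listed genes with an Ebf2-EGFP- only peak within 5 kb were Bcl11a and Bcl11b, described above, the immediate early gene Egr1 (173 bp, at 711 bp), and the histone gene Hist2h2ab (157 bp, at 137 bp). Of progenitor and patterning genes, such peaks lay 20000 bp from the TSS of Sox2 (chr3:34670327-34670483, 157 bp), 59 bp from that of Fgfr3, a growth factor receptor of progenitors (chr5:33721633-33721832, 200 bp), and 108 bp from that of Bmp7, a dorsal patterning signal (chr2:172940116-172940310, 195 bp). At Fgfr3 and Bmp7 the TSS was also marked in Ebf2-EGFP+ cells. Of the 513, 154 (30.02%, CI 26.2 to 34.1) were listed at E13.5 or E15.5 in Ebf2-EGFP+ cells. For promoter peaks of the class this was 75% and for distal ones 17.0%.

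Of 116 distal shared peaks, 7 (6.03%, CI 2.95 to 11.9) were assigned to a listed gene. Lhx2, a LIM factor of cortical progenitors, had such a peak of 218 bp 9574 bp from its TSS (chr2:38348746-38348963), and its locus also held the widest distal Ebf2-EGFP+ only peak at a listed progenitor or neuronal gene, of 1265 bp (chr2:38351318-38352582). Kat6b, a lysine acetyltransferase, had 2 of 868 bp and 469 bp, 18368 bp and 19542 bp from its TSS. Srsf12 and Zfp638 had peaks of 745 bp and 549 bp, Dpysl3, a cytoskeletal protein of axons, had 337 bp, and Cox6c had 182 bp.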

How the data were processed

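Cells were dissociated from embryonic cortex, sorted by EGFP, fixed with formaldehyde and used for ChIP with Abcam antibodies against H3K27ac and H3K27me3. According to the study and the submitters' processing notes, reads were aligned to mm10 with Bowtie 1.1.2 with up to 3 mismatches, and MACS called the peaks with its cutoff on the p-value set to 1e-05. The MACS version, the pooling of replicates and the use of input as control are not given in the sources used here. The deposited files held peak positions and a score column that was 0 throughout. They held no counts, so library depth is unknown, and intervals cover counting over peaks or genes only.

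BED starts were read as counted from 0 and printed from 1. Genes were the 21938 protein-coding genes of GENCODE M21 on chromosomes 1 to 19, X and Y, and small RNA genes came from RefSeq. Overlaps, distances, base composition and motif letters in GRCm38 were computed with Python 3.11.15, NumPy 2.4.6 and SciPy 1.17.1, and figures with matplotlib 3.10.9. The overlap and merging steps were tested on simulated data with known answers. The members and gene lists were chosen with earlier results of these data known. Any gene of the 32 lists could be named, and beyond them the 10 genes with the widest peak of each class within 5 kb of the TSS, the 10 with the most Ebf2-EGFP+ only peaks nearest to them, and the 10 clusters with the largest covered length. Alternatives were a reciprocal overlap of 50%, a gap of up to 500 bp, peaks of at least 300 bp, the widest Ebf2-EGFP+ peaks, merging within 1 kb, chromosomes 1 to 19, any transcript start, and other TSS and promoter windows. Some items are not reported here.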

Additional observations from a re-analysis of the deposited data

How the results depend on the processing

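Of the main values recomputed under other settings, 54 stayed inside the interval of the main value and 65 fell outside it. For shares this was the counting interval, and for median widths it was the quartiles of the peak widths, a wider range. For the 32 gene lists, the Ebf2-EGFP+ share moved in 14 with a TSS window of 1 kb and in 32 with the 1386 widest peaks. Motif shares were also counted in windows of 150 bp, where a shorter window lowers a share by construction. No paired analysis was possible because each cell group had 1 peak list and no replicate had a list of its own, and for the same reason no replicate could be left out. Changes are given by setting. The cause of each was not tested beyond what the setting itself does. With a reciprocal overlap of 50%, 17.3% of Ebf2-EGFP- and 0.648% of Ebf2-EGFP+ peaks were shared, promoter shares were 67.5% (shared), 24.2% (Ebf2-EGFP+ only) and 52.2% (Ebf2-EGFP- only), 65.6% of Ebf2-EGFP+ only peaks were distal, E15.5 listing was 14.2% for Ebf2-EGFP+ only and 45% for shared peaks, later listing of Ebf2-EGFP- only peaks was 24.9% and the median shared width was 404 bp. This rule asks narrow Ebf2-EGFP- peaks to cover wide Ebf2-EGFP+ peaks. With gaps of up to 500 bp, the shared percentages were 66.2% and 2.83%, the Ebf2-EGFP- only promoter share 11.3% and Ebf2-EGFP+ only listing at E15.5 28.9%.

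With peaks of at least 300 bp, the shared percentages were 82.5% and 2.57%, promoter shares 51.1% (Ebf2-EGFP+ only) and 40.4% (Ebf2-EGFP- only), the distal share 39.1%, TSS gained 27.7%, in both 1.13% and in Ebf2-EGFP- alone 0.0775%, E15.5 listing 55.6% (Ebf2-EGFP+ only) and 99.2% (shared), later listing of Ebf2-EGFP- only peaks 76.9% and the median Ebf2-EGFP+ only width 421 bp. With the 1386 widest Ebf2-EGFP+ peaks, the shared percentages were 27.9% and 26.0462%, promoter shares 80.9% (shared), 75.8% and 44.3%, the distal share 16.3%, TSS gained 4.59%, in both 1.66% and in Ebf2-EGFP- alone 2.51%, E15.5 listing 92% and 99.4%, later listing 62.1% and median widths 846 bp (Ebf2-EGFP+ only) and 939 bp (shared). Merging within 1 kb gave 2.501% of Ebf2-EGFP+ peaks shared, promoter shares of 21.7% and 11.54%, a distal share of 68.99%, E15.5 listing of 24.3% and later listing of 24.6%.

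On chromosomes 1 to 19 alone, 47.7% of TSS were gained. With any transcript start, promoter shares were 90.4%, 32.5% and 23.98%, the distal share was 52.2%, and 51.4% of TSS were gained and 4.44% in both. With a TSS window of 1 kb, 37.2% were gained and 3.42% were in both. With a promoter of 5 kb, the promoter shares were 86.4%, 33.4% and 26.7%. A pair of alternatives was added after seeing the data. Without peaks over 50% repeat-masked, the shared percentages were 68.4% and 2.59%, the Ebf2-EGFP+ only promoter share 26.7%, its distal share 62% and E15.5 listing 28.5%, and later listing of Ebf2-EGFP- only peaks 23.4%. Without the block on chromosome 9, later listing was 24.4%.

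The main limits are the short Ebf2-EGFP- list from 1 library, the unknown depth and the absence of peak heights. Cell group, number of libraries and depth cannot be told apart. A peak absent from the Ebf2-EGFP- list was not called, which does not show that the site lacked acetylation.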

Other observations

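Small RNA genes outside the gene lists were also near E11.5 Ebf2-EGFP+ peaks. Of 62 RefSeq rRNA genes, 45 had such a peak within 500 bp (72.6%), and 0 had an Ebf2-EGFP- H3K27ac peak, while 49 had an H3K27me3 peak of the Ebf2-EGFP- cells. Of 403 tRNA genes, 51 had an Ebf2-EGFP+ and 4 an Ebf2-EGFP- H3K27ac peak. The rRNA gene on chromosome 17 that the widest shared Ebf2-EGFP- peaks overlapped is from GENCODE and was not among the 62. Most of the RefSeq rRNA genes lie in the array on chromosome 8 described above.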
